A study of Mus musculus with 20 samples.

Results

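The 10 genes described here encode enzymes of fatty acid oxidation: Acsl1, Cpt1a, Cpt1b, Cpt2, Acadvl, Acadl, Acadm, Hadha, Acot1 and Acot2. They were chosen by name, and every array probe whose accession RefSeq assigns to one of them was taken, which gave 14 of 24844 probes with a gene symbol. All 14 probes passed the filter on dim signals, so that all 10 genes were among the 20226 tested. Transcript levels had been measured on 20 one-colour microarrays of mouse embryonic fibroblasts (MEFs), cells grown from mouse embryos, after 24 hours of culture with serum of female C3H/HeN mice. There were 4 groups of 5 arrays. In the 10-day set the serum came from mice irradiated with 4 Gy or from non-irradiated mice (0 Gy), and in the 20-day set from mice irradiated with 8 Gy or from non-irradiated mice. The irradiation is written as L/MDR in the labels, which do not expand it and do not say what the days count. Nothing in them says that replicates were separate cultures or serum donors, so the p-values measure only the spread between arrays, which may be technical.

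Long-chain fatty acids are activated to acyl-CoA by ligases such as Acsl1 and handed to carnitine by the Cpt1 enzymes of the outer mitochondrial membrane. Cpt2 returns them to CoA inside, and acyl-CoA dehydrogenases and the trifunctional protein then shorten them step by step. Thioesterases such as Acot1 and Acot2 split acyl-CoA back into free fatty acid and CoA. Many of these genes are known targets of the fatty acid receptor PPARα, and the pathway is best known from liver, heart and skeletal muscle.

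Levels are log2 signals, with the array's own 75th percentile subtracted, so that 0 is the percentile itself. A probe's brightness also depends on its sequence, and levels of different probes are therefore not set against each other. This percentile was 731 to 1464 intensity units, and 56.8% to 67.2% of probes on an array were well above background. Of the 14 probes, 13 were well above background on all 20 arrays, and none was saturated. The arrays lay on 7 slides. In the 10-day set slide 1 held control replicates 1 to 4, slide 2 held control replicate 5 with 4 Gy replicates 1 and 2, and slide 3 held 4 Gy replicates 3 to 5. In the 20-day set slide 4 held control replicates 1 to 3, slide 5 control replicates 4 and 5, slide 6 the 8 Gy replicates 1 to 3 and slide 7 the 8 Gy replicates 4 and 5. No slide was shared between sets, so that set and slide cannot be told apart, and no 20-day slide held both groups. The median correlation of an array with the others of its group was 0.978 to 0.982 in the 20-day control group and 0.992 or higher in the other groups.

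All 12 fibroblast markers were well above background on all arrays. Their summed level had a median of 880 with 8 Gy serum (863 to 919) and 813 with control serum (746 to 879) in the 20-day set, and of 1210 with 4 Gy serum (1095 to 1256) and 1233 with control serum (1169 to 1290) in the 10-day set, where every array was above all 20-day arrays. Markers of other cells differed between the sets as well. The summed level of 11 macrophage markers had a median of 39.0 with 8 Gy serum (34.2 to 41.4) and 44.8 with control serum (33.4 to 49.4) in the 20-day set. In the 10-day set it was 2.10 with 4 Gy serum (1.91 to 2.37) and 1.87 with control serum (1.39 to 1.99). For 8 adipocyte markers the sum was 33.6 with 8 Gy serum (32.7 to 39.7) and 45.1 with control serum (33.5 to 76.9) in the 20-day set, and in the 10-day set it was 5.79 with 4 Gy serum (4.69 to 8.21) and 5.77 with control serum (4.16 to 6.88). Adipoq, Lep, Cfd and Retn were not well above background on any 10-day array, and in the 20-day set this held only for Lep. The sum of 10 muscle markers was 19.4 with 8 Gy serum (16.03 to 30.2), 19.8 with 20-day control serum (13.5 to 33.2), 57.8 with 4 Gy serum (53.1 to 66.0) and 34.8 with 10-day control serum (33.3 to 45.0). Of these 10 markers 8 were well above background on all 5 arrays of each 10-day group. The same held for 6 with 8 Gy serum and for 5 with 20-day control serum. Ckm was not well above background on any array, and Myog and Myh3 were not on any 20-day array. Of 6 hepatocyte markers the sum did not exceed 0.186 on any array. These sums are linear signals relative to the 75th percentile.

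**Figure D1:**
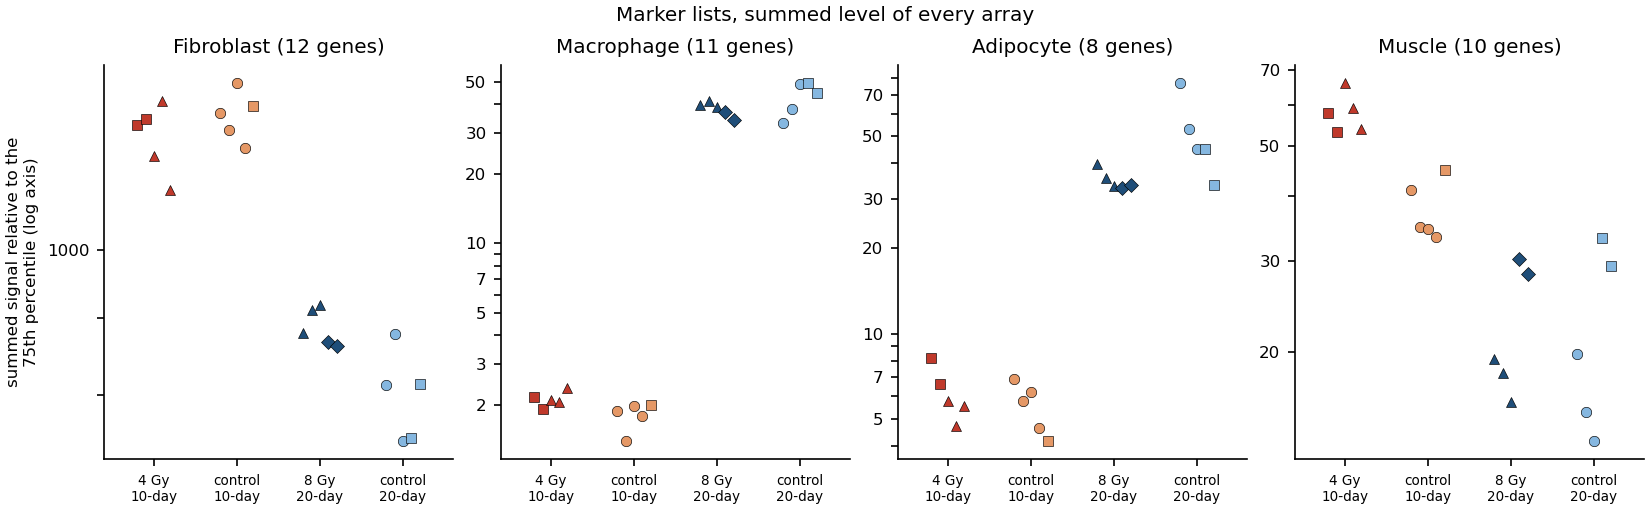
Summed signal of the markers of 4 cell types on each array, as a multiple of its 75th percentile, on a log axis of its own for each panel. Each point is 1 array and each marker shape within a set is 1 slide. Macrophage and adipocyte marker sums were higher on every 20-day array than on any 10-day array.

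The main comparison for these genes was that of serum from mice irradiated with 8 Gy with control serum of the 20-day set. Of the 10 genes, 5 fell at an adjusted p under 0.05 and 0 rose: Acsl1, Acot2, Acot1, Acadm and Acadl. Among all genes 46% passed in this comparison, 28.8% downward and 17.3% upward. The difference was negative for 9 of the 10 genes with a median of −0.27 log2 units, against a median of −0.09 over all genes. For 4 of the 10 the 8 Gy arrays lay wholly below the control arrays, as they did for 19% of all genes. In a mixed culture, fewer cells of a type and less RNA per cell cannot be told apart. Of the adipocyte markers tested in the same comparison 3 fell (Adipoq by 0.81, Fabp4 by 0.49 and Retn by 1.01 log2 units) and 1 rose (Lipe, 0.95), and of the 11 macrophage markers 3 fell and 0 rose. The part of these cells in the levels of the 10 genes was not tested.

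**Figure D2:**
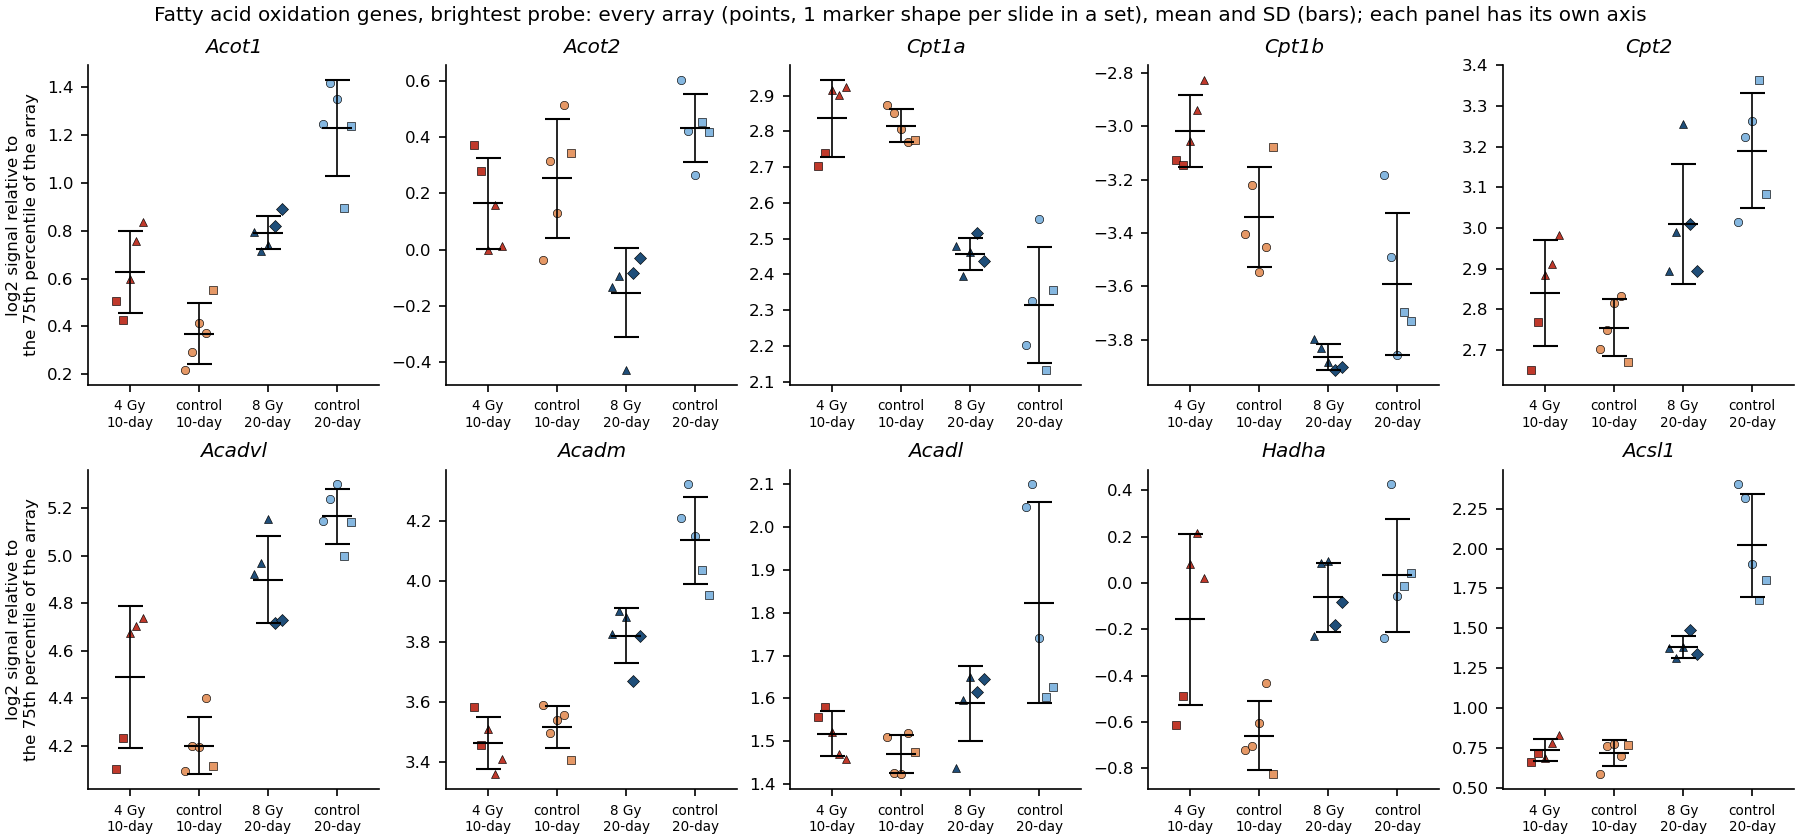
Log2 signal of the brightest probe of each gene on every array (points, 1 marker shape per slide within a set), with the mean and SD of each group of 5 arrays (bars), each panel on its own axis. For Acsl1, Acot1, Acot2 and Acadm all 8 Gy arrays lie below all 20-day control arrays, whereas 4 Gy and 10-day control arrays overlap for every gene.

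Acsl1, the ligase that activates long-chain fatty acids (chromosome 8, 46471037 to 46536051 in GRCm38.p6), had the lowest difference of the 10. With 8 Gy serum its brightest probe stood at 1.38, 1.31, 1.38, 1.49 and 1.34, against 2.40, 2.32, 1.90, 1.68 and 1.80 with control serum. Every 8 Gy array was below every control array, and the control arrays of slide 4 were the higher ones. The difference was −0.64 ± 0.11 (SE, adjusted p = 0.000137), or 0.642 of the control level. It was −0.36 without the 3 control arrays of slide 4 (adjusted p = 0.00104) and −0.83 without those of slide 5 (adjusted p = 4.46e-06). The other probes of Acsl1 went the other way. Probe 2 stood at −2.13, −2.06, −1.96, −2.002 and −2.003 with 8 Gy serum, against −1.73, −3.36, −2.25, −2.65 and −2.77 with control serum, and it was higher by 0.52 ± 0.19 (adjusted p over all probes = 0.0275). Control replicate 1 was above all 8 Gy arrays and the other 4 control arrays were below them. Probe 3 differed by 0.21 ± 0.21 (adjusted p = 0.45), and its lowest control array stood at −3.51 while the other 4 were between −2.22 and −1.94. When the 3 probes were averaged the difference was 0.03 (adjusted p = 0.736), so that the direction for Acsl1 rests on its brightest probe.

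Acot2, a mitochondrial acyl-CoA thioesterase (chromosome 12, 83987861 to 83993877), stood at −0.13, −0.09, −0.43, −0.08 and −0.03 with 8 Gy serum and at 0.60, 0.42, 0.27, 0.45 and 0.42 with control serum. The groups did not overlap, and the 8 Gy arrays were the only group of the 4 with all values below 0. The difference was −0.59 ± 0.11 (adjusted p = 0.000231), and it was −0.59 again when either control slide was left out. Acot1, the cytosolic counterpart (chromosome 12, 84009502 to 84017670), stood at 0.79, 0.71, 0.74, 0.82 and 0.89 with 8 Gy serum, against 1.25, 1.42, 1.35, 0.90 and 1.24 with control serum. The groups again did not overlap, though the lowest control array, at 0.896, was close to the highest 8 Gy array, at 0.892. The difference was −0.44 ± 0.10 (adjusted p = 0.00142), and −0.28 without slide 4 (adjusted p = 0.0667). Acot1 and Acot2 are neighbours whose starts lie 21641 bases apart, and they are close paralogs. Probe sequences were not used here, so that a share of signal from one gene on the probe of the other could not be checked. The levels of the pair correlated at r = 0.22 over the 20 arrays, which share scaling and set.

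The start regions of Acsl1, Acot1 and Acot2 are shown because these genes had the lowest differences. Each window runs from 250 bases before to 50 bases after a transcript start, is read 5′ to 3′ on the plus strand and comes from RefSeq (GRCm38.p6), where 9 of the 10 genes had at least 1 window and Cpt1b had none. Capitals mark exact matches, on either strand, to the GC box GGGCGG, the CCAAT box CCAAT, the nuclear receptor half-site AGGTCA or its direct repeat with 1 free base between, to which PPAR and RXR are known to bind as a pair.
Acot1, chr12:84009252-84009551: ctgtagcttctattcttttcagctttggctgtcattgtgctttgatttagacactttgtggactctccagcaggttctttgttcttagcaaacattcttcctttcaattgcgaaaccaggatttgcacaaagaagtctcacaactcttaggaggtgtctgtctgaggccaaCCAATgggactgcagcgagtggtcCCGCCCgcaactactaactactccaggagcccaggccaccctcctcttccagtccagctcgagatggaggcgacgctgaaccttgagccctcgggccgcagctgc
Acot2, chr12:83987611-83987910: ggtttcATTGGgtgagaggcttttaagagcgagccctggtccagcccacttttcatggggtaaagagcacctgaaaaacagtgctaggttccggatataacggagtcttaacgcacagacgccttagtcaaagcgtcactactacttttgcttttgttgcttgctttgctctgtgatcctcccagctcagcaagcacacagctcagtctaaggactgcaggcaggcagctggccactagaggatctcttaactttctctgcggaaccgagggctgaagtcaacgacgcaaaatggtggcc
Acsl1 start 1, chr8:46470787-46471086: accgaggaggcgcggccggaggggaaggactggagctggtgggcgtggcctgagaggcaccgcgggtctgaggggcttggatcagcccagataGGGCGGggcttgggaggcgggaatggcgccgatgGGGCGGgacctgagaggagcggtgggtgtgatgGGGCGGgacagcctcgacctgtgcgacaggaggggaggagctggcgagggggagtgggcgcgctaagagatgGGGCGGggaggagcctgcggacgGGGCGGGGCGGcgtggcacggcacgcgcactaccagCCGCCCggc
Acsl1 start 2, chr8:46490716-46491015: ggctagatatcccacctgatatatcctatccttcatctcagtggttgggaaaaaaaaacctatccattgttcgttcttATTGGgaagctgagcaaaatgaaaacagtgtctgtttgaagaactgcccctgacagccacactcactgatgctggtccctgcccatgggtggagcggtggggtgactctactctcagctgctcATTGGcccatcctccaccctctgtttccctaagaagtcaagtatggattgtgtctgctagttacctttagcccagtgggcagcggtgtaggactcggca
In Acot1 a CCAAT box lay 79 bases before the start and a GC box 55 bases before it. Acot2 had a CCAAT box 244 bases before its start. The upstream start of Acsl1 held 7 GC boxes, of which the pair at positions 6 and 11 after the start overlap, and the other start held 2 CCAAT boxes. GC boxes were found in 6 of the 9 genes with a window and in 35.7% of 32851 windows of this length. CCAAT boxes were found in 4 of the 9 genes and in 37.4% of windows. The half-site occurred in Cpt1a, Acadvl and Acadm and in 16.3% of windows, and it overlapped no other motif there. The direct repeat occurred in 0 of the 9 genes and in 0.0396% of windows. These matches describe letters in a window and are not binding sites.

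Of the acyl-CoA dehydrogenases, Acadm and Acadl fell with 8 Gy serum. Acadm, which acts on medium chains (chromosome 3, 153922353 to 153944643), stood at 3.82, 3.90, 3.88, 3.67 and 3.82 with 8 Gy serum and at 4.21, 4.32, 4.15, 4.04 and 3.96 with control serum. The groups did not overlap and differed by −0.32 ± 0.07 (adjusted p = 0.00197). The difference was −0.06 after quantile normalisation (adjusted p = 0.497) and −0.18 without slide 4 (adjusted p = 0.0732). Acadl, which acts on long chains (chromosome 1, 66830839 to 66863309), stood at 1.44, 1.60, 1.65, 1.61 and 1.64 with 8 Gy serum, against 2.05, 2.10, 1.74, 1.60 and 1.63 with control serum. Control replicates 1 to 3, all on slide 4, were above every 8 Gy array, and replicates 4 and 5 were among them. The difference was −0.24 ± 0.09 (adjusted p = 0.0354), −0.03 without slide 4 (adjusted p = 0.761), and 0.04 with another background correction. With the replicate number as a block the call of Acadl was lost (adjusted p = 0.0781). Acadvl, the very long chain enzyme of the inner membrane (chromosome 11, 70010183 to 70015428), averaged 4.90 ± 0.18 with 8 Gy serum and 5.17 ± 0.12 with control serum (SD, n = 5 each). Its difference of −0.27 ± 0.12 did not pass (adjusted p = 0.0806) but passed with the replicate block (adjusted p = 0.0407).

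The carnitine shuttle genes gave no call at the level of the brightest probe. Cpt1a (chromosome 19, 3322326 to 3385735) averaged 2.46 ± 0.05 with 8 Gy serum and 2.31 ± 0.16 with control serum, a difference of 0.14 ± 0.07 (adjusted p = 0.125). Cpt1b, the muscle form of the same enzyme (chromosome 15, 89416405 to 89425862), averaged −3.87 ± 0.05 with 8 Gy serum and −3.59 ± 0.26 with control serum. Its difference of −0.27 ± 0.11 did not pass (adjusted p = 0.0546), and it passed with the replicate block (adjusted p = 0.0368). Cpt2 (chromosome 4, 107903982 to 107923589) averaged 3.01 ± 0.15 with 8 Gy serum and 3.19 ± 0.14 with control serum (difference −0.18 ± 0.09, adjusted p = 0.0932). Hadha, the trifunctional protein's alpha subunit (chromosome 5, 30119423 to 30154980), averaged −0.06 ± 0.15 with 8 Gy serum and 0.03 ± 0.24 with control serum (difference −0.10 ± 0.15, adjusted p = 0.629). After quantile normalisation Cpt1a was called higher (0.29) and Cpt1b lower (−0.41). Counted with the replicate block, 6 of the 10 genes fell in this comparison and 0 rose, against 29.2% and 18% of all genes.

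Probe 2 of Cpt1a stood apart from probe 1. It stood at −0.73, −0.88, −0.80, −0.68 and −0.65 with 8 Gy serum, against −1.56, −1.49, −1.43, −1.59 and −1.34 with control serum. All 8 Gy arrays were above all control arrays, and the difference was 0.74 ± 0.15 (adjusted p over all probes = 0.000519). The dimmer probe 2 of Cpt1b, well above background on 3 of 5 control arrays, differed by 0.42 ± 0.21 (adjusted p = 0.11), opposite in sign to probe 1. Counted by probe, 2 of 14 rose and 5 fell, against 20.6% and 27.4% of all tested probes. Over the 20 arrays the probes of Cpt1a correlated at r = 0.85, those of Cpt1b at r = 0.42, and probe 1 of Acsl1 at r = −0.02 with probe 2 and 0.39 with probe 3. For all 3 genes with more than 1 probe, the dimmer probes thus had a more positive difference than the brightest.

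**Figure D3:**
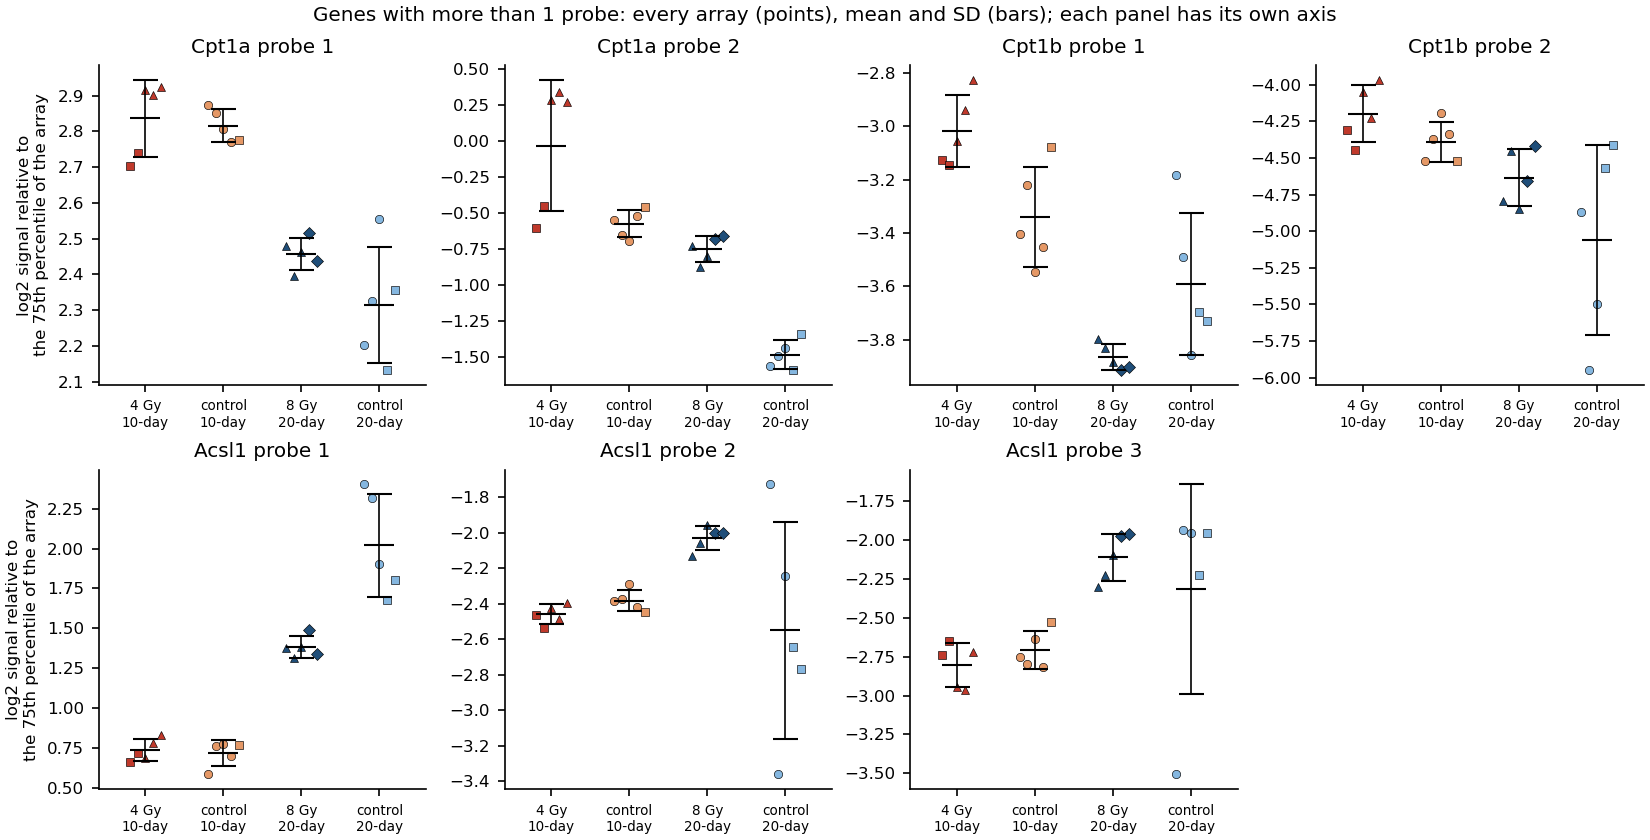
Log2 signal of every probe of Cpt1a, Cpt1b and Acsl1 on each array (points, 1 marker shape per slide within a set), with the mean and SD of each group (bars), each panel on its own axis. Probe 1 of Acsl1 lies lower with 8 Gy serum than with 20-day control serum, and probe 2 of Cpt1a lies higher.

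With 4 Gy serum in the 10-day set, 0 of the 10 genes passed in limma, against 5.97% of all genes (4.5% upward and 1.47% downward). The groups overlapped for all 10, while 4.28% of all genes were higher and 3.62% lower with no overlap. At an unadjusted p under 0.05 there were 4, all with positive differences: Hadha (0.50 ± 0.15), Cpt1b (0.32 ± 0.11), Acadvl (0.29 ± 0.12) and Acot1 (0.26 ± 0.10). The smallest adjusted p was that of Hadha, 0.0549. The median difference of the 10 genes was 0.07, against 0.00 over all genes (0.0021 before rounding). By probe, 1 of 14 rose, against 3.85% of all tested probes upward: probe 2 of Cpt1a, by 0.54 ± 0.15 (adjusted p = 0.0404).

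The arrays behind these values differed between slides. Hadha stood at −0.61 and −0.49 on the 4 Gy arrays of slide 2 and at 0.08, 0.21 and 0.02 on those of slide 3, against −0.72, −0.70, −0.61 and −0.43 on the control arrays of slide 1 and −0.83 on that of slide 2. The 4 Gy arrays of slide 2 were within the range of the control values, and those of slide 3 were above all of them. Within slide 2, which held a single control array, the difference was 0.28. Acadvl showed the same order, at 4.10 and 4.23 on the 4 Gy arrays of slide 2 and 4.67, 4.70 and 4.74 on those of slide 3, against 4.09 to 4.40 on the control arrays. Within slide 2 its difference was 0.05. Probe 2 of Cpt1a stood at −0.60 and −0.45 on the 4 Gy arrays of slide 2 and at 0.29, 0.34 and 0.27 on those of slide 3, against −0.69 to −0.46 with control serum, and within slide 2 it differed by −0.07. Within slide 2 Acot1 differed by −0.09 and Cpt1b by −0.06. Without slide 2 Acot1, Cpt1b, Acadvl and Hadha rose (adjusted p 0.0159, 0.0209, 0.00599 and 0.00148), as did 11.2% of all genes. Without slide 3 none of the 10 genes passed, and 0% of all genes did.

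**Figure D4:**
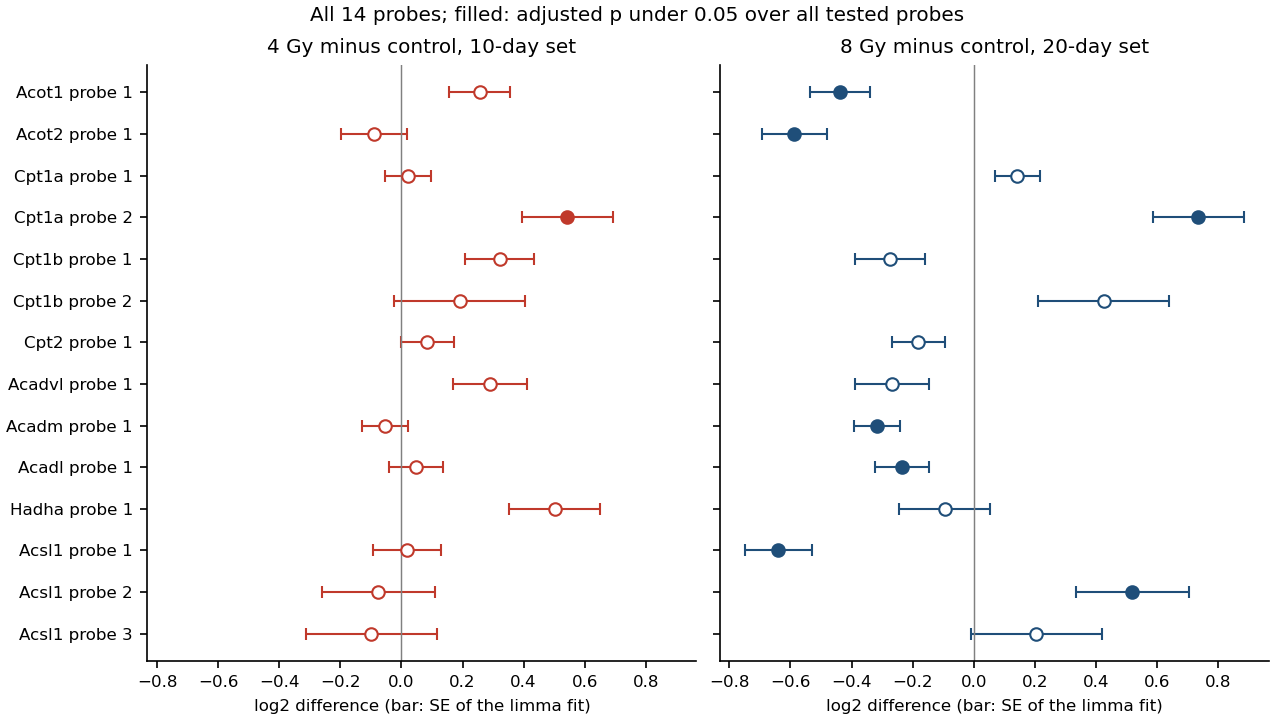
Log2 difference of each of the 14 probes, 4 Gy minus control serum in the 10-day set (left) and 8 Gy minus control serum in the 20-day set (right), with the SE of the limma fit as bars. Filled points have an adjusted p under 0.05 over all tested probes: 1 probe on the left, and 7 on the right of which 5 are below 0.

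The response in the 20-day set minus that in the 10-day set asks whether the irradiated sera differed in effect, where dose and set changed together. It was negative for 9 of the 10 genes with a median of −0.53, against −0.11 over all genes. Of the 10 genes 6 were lower and 0 higher, against 22% and 12.2% of all genes (34.2% in either direction). The difference of responses was −0.69 ± 0.14 for Acot1 (adjusted p = 0.00104), −0.66 ± 0.16 for Acsl1 (adjusted p = 0.00349), −0.60 ± 0.16 for Cpt1b (adjusted p = 0.00777) and −0.50 ± 0.15 for Acot2 (adjusted p = 0.0166). For Acadvl it was −0.56 ± 0.17 (adjusted p = 0.0183) and for Hadha −0.60 ± 0.21 (adjusted p = 0.0362). The other probes of Acsl1 (0.59 and 0.30) and of Cpt1b (0.23) had the opposite sign and did not pass. With the mean of all probes of a gene neither was called, at 0.08 for Acsl1 (adjusted p = 0.511) and −0.18 for Cpt1b (adjusted p = 0.444). The call of Acadvl was lost after quantile normalisation (−0.35, adjusted p = 0.159) and cyclic loess (−0.33, adjusted p = 0.158). The call of Hadha was lost when any of 10 of the 20 arrays was left out. For Acadvl, Hadha and Cpt1b neither set gave a call on its own, and their positive 4 Gy values add to the difference. Without slide 3, which held the 4 Gy arrays with the higher levels, 3 of the 10 were lower (Acot1, Acot2 and Acsl1), against 14.9% of all genes. With slide as a random block 2 were lower (Acot1 and Acsl1), against 11.4% of all genes.

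Between the control groups, 20-day control serum gave higher levels than 10-day control serum for 7 of the 10 genes and lower levels for 1, against 37% and 29.4% of all genes. Acsl1 averaged 2.02 ± 0.32 in the 20-day and 0.72 ± 0.08 in the 10-day control group, a difference of 1.30 ± 0.11 (adjusted p = 5.09e-09). Probe 2 of Acsl1 differed by −0.17 (adjusted p over all probes = 0.444) and probe 3 by 0.39 (adjusted p = 0.115), so that this call too is that of the brightest probe. Acadvl averaged 5.17 ± 0.12 in the 20-day and 4.20 ± 0.12 in the 10-day control group, and Acot1 averaged 1.23 ± 0.20 in the 20-day and 0.37 ± 0.13 in the 10-day control group. Their differences, 0.97 for Acadvl and 0.86 for Acot1, were followed by those of Hadha (0.69), Acadm (0.62), Cpt2 (0.44) and Acadl (0.35), all with groups that did not overlap, as was the case, upward, for 28.2% of all genes. The call of Cpt2 was lost after quantile normalisation (0.13), cyclic loess (0.15) and normexp background correction (0.13). That of Acadl was lost with cyclic loess (0.18), normexp (0.02) and without slide 4 (0.15). Cpt1a was the gene that fell, averaging 2.31 ± 0.16 in the 20-day and 2.82 ± 0.05 in the 10-day control group (difference −0.50 ± 0.07, adjusted p = 8.33e-06). Its probe 2 fell as well, by 0.91 (adjusted p = 2.4e-05). Acot2 (adjusted p = 0.148) and the brightest probe of Cpt1b did not pass. Probe 2 of Cpt1b fell by 0.67 (adjusted p = 0.00987), and Cpt1b was called lower with the mean of its probes (−0.46), without slide 4 (−0.37) and with non-uniform and outlier spots kept (−0.26). Acot2 was called higher with scaling to the array median (0.31) and with normexp (0.31). The macrophage markers all rose in the same comparison (11 of 11, median 4.07) and so did 6 of 7 adipocyte markers tested (median 4.22). Adipoq, Cfd and Retn were well above background on no 10-day array, and Cidec on no 10-day control array. Adipoq, Cfd and Retn thus passed the filter only through the 20-day groups, so that their direction here is no separate evidence. The adipocyte median is set partly against signals near background. The part of macrophages and adipocytes in the levels of the 10 genes was not tested.

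Between the irradiated groups, 8 Gy serum against 4 Gy serum, 3 genes rose and 3 fell, against 29.2% and 28.8% of all genes. Acsl1 rose by 0.64 ± 0.11 (adjusted p = 6.89e-05), Acadvl by 0.41 ± 0.12 (adjusted p = 0.00795) and Acadm by 0.36 ± 0.07 (adjusted p = 0.000478). Cpt1b averaged −3.87 ± 0.05 with 8 Gy serum and −3.02 ± 0.14 with 4 Gy serum, a difference of −0.85 ± 0.11 (adjusted p = 4.12e-06). Cpt1a fell by 0.38 (adjusted p = 0.000269) and Acot2 by 0.32 (adjusted p = 0.0165). The call of Acadvl was lost after quantile normalisation (0.23), cyclic loess (0.20) and normexp (0.20) and without slide 2 (0.19). That of Acot2 was lost with scaling to the array median (−0.26), with slide as a random block (−0.32) and without slide 2 (−0.21). Without slide 3, 6 genes rose and 3 fell, with Acot1, Cpt2 and Hadha added, against 21% and 19.4% of all genes. Without slide 2, 2 rose and 2 fell, against 27.5% and 27.8% of all genes. By the brightest probe Acsl1, Acadm, Acadvl, Acadl, Hadha, Acot1 and Cpt2 thus had their highest mean of the 4 groups with 20-day control serum. Their next highest was with 8 Gy serum, and Cpt1a had its 2 highest means in the 10-day set. Cpt1b was highest with 4 Gy serum, next with 10-day control serum, then with 20-day control serum and lowest with 8 Gy serum. The 4 Gy and 10-day control means of the brightest probes, which are neighbours in the order for all 10 genes, gave no difference that passed. Other probes gave another order. Probes 2 and 3 of Acsl1 were highest with 8 Gy serum (−2.03 and −2.11, against −2.55 and −2.32 with 20-day control serum). Probe 2 of Cpt1b was lowest with 20-day control serum (−5.06, against −4.63 with 8 Gy serum). These comparisons share groups with the earlier ones and compare sets that share no slide.

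Of 64 other genes of the pathway, 57 were tested, and with 8 Gy serum 13 rose and 18 fell, with a median difference of −0.07. Over all genes 17.3% rose and 28.8% fell with a median of −0.09, so that the counts of these 57 genes are near the background. Of the activation and transport genes 2 of 9 rose and 4 fell. The fatty acid transporter Slc27a4 rose by 0.64 ± 0.09 (adjusted p = 2.06e-05), whereas the ligases Acsl4 (other probe −0.17) and Acsl3, relatives of Acsl1, fell by 0.45 and 0.32 log2 units, and the peroxisomal carnitine transferase Crot fell by 0.29. Of the other mitochondrial oxidation genes 4 of 15 rose and 5 fell. Etfa, a subunit of the flavoprotein that takes electrons from the acyl-CoA dehydrogenases, averaged 2.89 ± 0.25 with 8 Gy serum and 3.99 ± 0.36 with control serum (difference −1.10 ± 0.14, adjusted p = 5.44e-06). Acads, the short-chain dehydrogenase, averaged 0.25 ± 0.28 with 8 Gy serum and −0.97 ± 0.43 with control serum (difference 1.23 ± 0.17, adjusted p = 1.86e-05). Acadsb rose by 0.31 and Acad9 fell by 0.26. The dehydrogenases thus did not move in one direction. Hadhb, the partner subunit of Hadha, differed by −0.12 and did not pass (adjusted p = 0.392).

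Among peroxisomal genes 3 of 10 rose and 2 fell, with the thiolase Acaa1b at 0.50 ± 0.09 and the carrier Scp2 at −0.49 ± 0.09. Abcd2 was at least 1.71-fold higher with 8 Gy serum, a bound because it was not well above background on any of the 20-day control arrays. The fitted difference, to which the limma test applies, was 1.36 (adjusted p = 0.00378). Of the groups compared here only the 8 Gy group, with all 5 arrays well above background, met the filter for Abcd2. This p is therefore no separate support for the rise, and Abcd2 is among the 3 counted as risen. The other probe of Abcd2 differed by 0.84 ± 0.34 without passing (adjusted p = 0.0525). Of the other thioesterases 0 of 5 rose and 3 fell: Acot8 by 0.43, Acot9 by 0.35 and Acot13 by 0.29. Acot4, next in p, differed by −0.29 without passing (adjusted p = 0.113), and its other probe differed by 0.67. Of the malonyl-CoA genes, whose product holds back Cpt1 enzymes, the synthesising carboxylase gene Acaca rose by 0.92 ± 0.14 (other probes 0.76 and −0.04), the degrading enzyme gene Mlycd fell by 0.30, and Acacb differed by −0.30 without passing. Of 8 PPAR receptors and coregulators 3 rose and 1 fell. Ppara rose by 0.79 ± 0.11 (adjusted p = 2.51e-05), Ppargc1b by 0.71 and Nrip1 by 0.33, and Pparg, known for its role in adipocytes, fell by 0.55 ± 0.11 (adjusted p = 0.000545). Of 7 further PPAR target genes 0 rose and 2 fell, Fabp3 by 0.60 and Pdk4 by 0.39, and Cyp4a10 (−0.63) and Plin2 (−0.14) did not pass. With 4 Gy serum 1 of the 57 genes passed, Acacb, which rose by 0.84 ± 0.22 (adjusted p = 0.0297), against 5.97% of all genes. This call was lost with slide as a random or fixed block, without slide 3 and without a filter on dim probes.

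**Figure D5:**
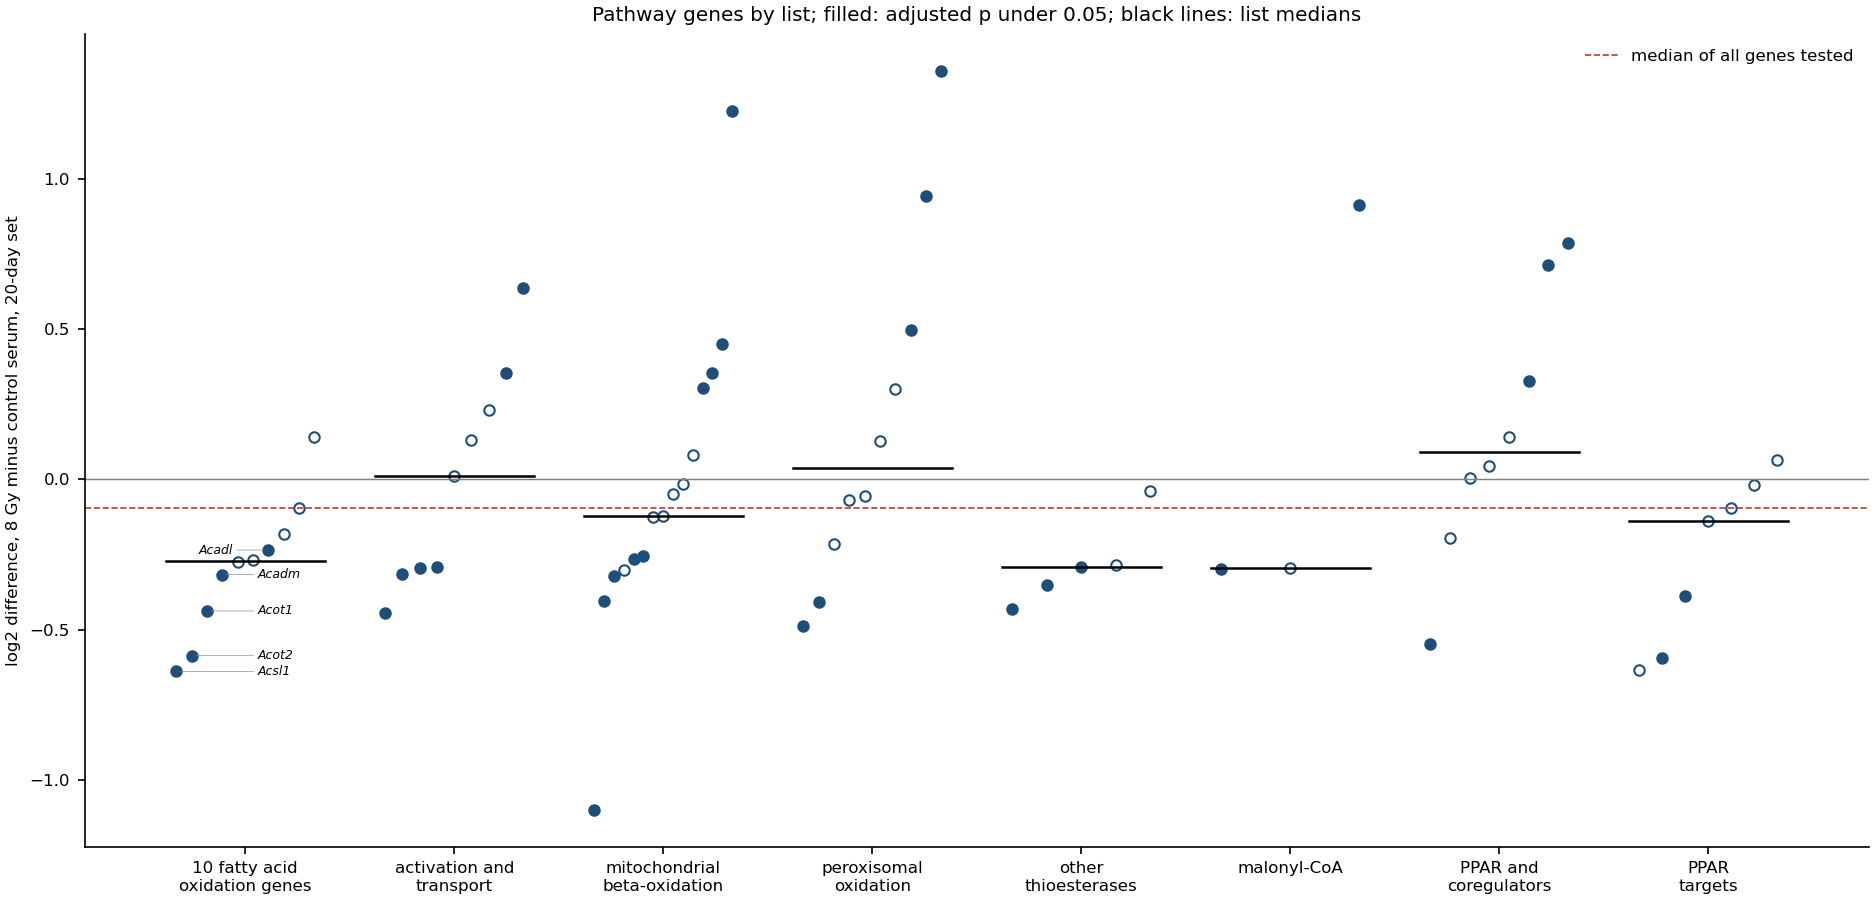
Log2 difference, 8 Gy minus control serum in the 20-day set, of the 10 genes and of the other pathway genes by list (each point 1 gene). Filled points have an adjusted p under 0.05 (named for the 10 genes), black lines are list medians, and the dashed line is the median of all genes tested. The 5 called genes of the 10 lie below 0, while called genes lie on both sides of 0 in all other lists except the thioesterases and the PPAR targets, and Abcd2 is drawn at its fitted value.

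For 9 of the 10 genes the named gene with the most similar profile over the 20 arrays was noted, by Pearson's r. These were Rnasek for Acsl1 (r = 0.987), Ndufb3 for Acadm (0.987), Rnf34 for Acadvl (0.978), Wdyhv1 for Acot1 (0.951), Rnf121 for Cpt2 (0.938), Ikzf4 for Cpt1b (0.938), C1d for Acadl (0.925), Scand1 for Hadha (0.913) and Skil for Acot2 (0.912). Among the 10 themselves r was highest for Acadm with Acsl1 (0.937) and for Acot1 with Acsl1 (0.904), and lowest for Acadm with Cpt1a (−0.875). All arrays share the set difference and the scaling, so that these values describe the 20 arrays only.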

How the data were processed

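Cy3-labelled RNA of 20 samples was hybridised to Agilent one-colour arrays, 1 sample each, and groups and replicate numbers (1 to 5) came from the sample titles. The deposited scanner files hold a processed intensity per spot, background-subtracted and detrended within the array, extracted by the authors with Agilent Feature Extraction 10.5.1.1 per the file headers (11.0 per the submitters' processing notes). Other deposited columns mark each spot with 0 or 1 (signal clear of background, saturation, uneven spot) and were used as given. The authors' deposited table of log2 values, centred per probe within a set (column medians −0.12 to 0.23), correlated with the recomputed values at r = 0.996 or higher and was used as an alternative.

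Non-uniform and population outlier spots (50 to 181 of 43379 per array) were left out, spots of a probe were averaged, and the level was log2 of this intensity with the 75th percentile over the array's probes subtracted. Accessions were named through RefSeq (GRCm38.p6). A probe was tested if some group of 5 had it well above background on each array, and the brightest tested probe stood for its gene. One limma 3.58.1 fit (R 4.3.3, two-sided, tested on simulated data) covered all arrays with a mean per group, and p-values were adjusted by Benjamini-Hochberg over all genes tested (20226, of which 2 lacked a value in some comparisons), threshold 0.05. Probe values come from the same fit over 26233 probes. The number of arrays limits the precision. In the simulated data, with 200 of 20224 genes changed in the 20-day comparison, 38% of changes of 0.5 log2 units and 81% of changes of 1 were recovered. There were 10 false calls. The simulated spread was independent between arrays and had no slide effect, whereas in the data 46% of all genes passed and slides differed. These rates are thus those of the simulation and not of the 20-day comparison itself. A gene that did not pass may still differ. The 10 genes, the pathway and marker lists and the tests were chosen with earlier results of these data known. Of each pathway list up to 4 genes with the smallest p in a comparison were named, and some genes are not reported here.

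Same-numbered samples of the 20-day set deviated together (r = 0.14 to 0.41 over tested genes in 5 pairs), so that the replicate block is given beside its results. Of the 5 samples with 8 Gy serum 2 were closest to the control of their own number. Those of replicates 1 to 3 were closest to a control among replicates 1 to 3, and those of replicates 4 and 5 to control replicate 5. In both groups replicates 1 to 3 lay on one slide and 4 and 5 on another. Replicate number and this split cannot be told apart, and the calls added by the block carry this limit. In the 10-day set r was −0.05 to 0.18, and 2 of the 5 samples with 4 Gy serum were closest to the control of their own number. Alternatives were other scalings, background corrections, filters, probe rules, slide blocks and leaving out arrays or, added after the data had been seen, slides. Normexp used median signals because the files hold no mean signals.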

Additional observations from a re-analysis of the deposited data

Results flagged for a closer look

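The test of the difference between the responses of the 20-day and the 10-day set picked out 6 of the 10 genes, against 34.2% of all genes. By the brightest probe the log2 differences were −0.69 for Acot1, −0.50 for Acot2, −0.60 for Cpt1b, −0.56 for Acadvl, −0.60 for Hadha and −0.66 for Acsl1. The other probes of Acsl1 (0.59 and 0.30) and of Cpt1b (0.23) had the opposite sign and did not pass. With slide as a random block 2 of the 10 genes were called, against 17.9% of all genes. Dose, set and slides changed together in this comparison and cannot be told apart.

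Among the 40 groups of 5 arrays formed by the 10 genes, 2 held an array far from the other 4, and chance picks out about 1 group in 20. Acot2 stood at −0.43 in replicate 3 with 8 Gy serum, below the next array at −0.13. Without it the difference from control serum was −0.52 (adjusted p = 0.000915). Acadl stood at 1.44 in replicate 1 with 8 Gy serum, below the next array at 1.60, and without it the difference was −0.20 (adjusted p = 0.0938).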

How the results depend on the processing

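With 8 Gy serum, Acot2 passed in 25 of 25 alternatives and Acot1 and Acsl1 in 24 of 25 each. Acadm passed in 22 and Acadl in 12 of 25. The number of the 10 genes called (5) was 8 with scaling to the array median, which moved the median of all genes to −0.24, and 3 (1 up, 2 down) without slide 4. Of all genes 51.7% passed with that scaling and 46.7% without slide 4. Leaving out 1 array gave 4 to 7 of the 10 genes and 28 to 33 other pathway genes, against 42.3% to 48.2% of all genes. Acadl lost its call without control replicate 1 or 2 or 8 Gy replicate 1, 2 or 4 (adjusted p 0.0508 to 0.103), and calls were gained by Cpt2 without control replicate 1 or 8 Gy replicate 3, Cpt1a without control replicate 3, Cpt1b without control replicate 3 or 5 and Acadvl without 8 Gy replicate 3. Signs turned for Acadl with normexp (0.0379) and for Acsl1 with the mean of its probes (0.0284, and 0.0804 for the difference between responses). With the replicate block, beyond the calls given above for Cpt1b, Acadvl and Acadl, no other of the 10 genes changed its call at 20 days. With this block 30 other pathway genes passed, and 47.1% of all genes did. With 4 Gy serum (0 called), 1 of the 10 genes passed with quantile normalisation, with an intensity trend and with the replicate block (Hadha, adjusted p = 0.0256), 2 with normexp and 4 without slide 2. Of all genes 6.94%, 6.09%, 8.12%, 5.38% and 18.6% passed in these settings, in the same order. Leaving out 1 array gave 0 to 2 of the 10 genes, against 1.08% to 10.4% of all genes. These were Hadha without 4 Gy replicate 1 or 2, Acadvl without 4 Gy replicate 1 and Cpt1b without control replicate 5. Of the other pathway genes (1 called), 3 passed with quantile normalisation, 2 with cyclic loess, 5 with normexp, 6 with the arrays of the set alone and 11 without slide 2. None passed without a filter on dim probes, with slide as a random or fixed block and without slide 3, and leaving out 1 array gave 0 to 3. Of all genes 6.47% passed with cyclic loess, 12.7% with the arrays of the set alone, 2.48% without the filter and 0.0989% with slide as a fixed block. For the difference between responses, 2 of the 10 and 14 other genes passed with slide as a random block, against 17.9% of all genes. Without slide 3 the counts were 3 and 14, against 23.2% of all genes. For the same difference leaving out 1 array gave 5 to 8 and 21 to 27, against 30.2% to 38.5% of all genes. Hadha lost that call in 10 of 20 such cases. Between control groups leaving out 1 array gave 8 to 9 and 38 to 42, against 63.1% to 68% of all genes. Between irradiated groups it gave 5 to 6 and 35 to 36, against 53.7% to 56.7% of all genes. Between irradiated groups 9 of the 10 genes passed without slide 3 and 4 without slide 2, against 40.3% and 55.3% of all genes. Over all genes, 75.4% of the calls with 4 Gy serum were upward, and 56.4% with scaling to the array median, and with 8 Gy serum 37.5% were, and 22.6% with that scaling. With slide as a random block 0.00494% of all genes passed with 4 Gy serum, against 5.97% without it. With 8 Gy serum 29.3% of all genes passed with this block, against 46% without it. Of the 10 genes 4 then passed with 8 Gy serum, and so did 24 other pathway genes. Acadl lost its call (−0.21, adjusted p = 0.168). No 20-day slide held both groups, so that this block cannot separate serum from slide there. The causes of these changes were not tested. Signal over background limited probe 2 of Cpt1b, the only probe of the 14 that was not well above background on all 20 arrays.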
